A study of Mus musculus with 30 samples.

Results

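The interleukin-6 family was followed in the fracture callus through 10 genes of the 43629 in the deposited count table. These were the ligand genes Il6, Il11, Lif, Osm and Clcf1, the receptor genes Il6ra, Il6st, Osmr and Lifr, and the feedback inhibitor gene Socs3. They were chosen by gene name, with earlier results of these data known, and each was found by its Ensembl identifier. Callus RNA came from male C57BL/6J mice, given a lean diet (Lean) or made obese by a high-fat diet (DIO). At 20 weeks of age all of them received an open osteotomy of the right tibia, stabilized with an intramedullary nail, so that no unfractured sample was among those analysed here. The libraries analysed here covered both diets on 4 days (d3, d5, d7, d10) and DIO mice also on d14 and d21. They numbered 12 Lean and 18 DIO, with 3 mice in each of the 10 groups and 1 callus in each library. The study also sequenced Lean calli on d14 and d21 and compared the diets then, but those Lean libraries were not among the ones used here. Diet could thus be compared here on 4 days only. The labels do not say more of the mice, and p-values measure the spread between these 3 libraries per group.

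Cytokines of this family act through receptor complexes that share the signalling chain gp130, the product of Il6st. IL-6 and IL-11 bind a private alpha chain first, whereas LIF and oncostatin M recruit the LIF receptor or the oncostatin M receptor as partner of gp130. The complexes activate Janus kinases and the transcription factor STAT3, which induces Socs3, whose product in turn binds gp130 and the kinases and dampens the signal. In bone the family is known to act on osteoblasts, osteoclasts and chondrocytes as well as on inflammatory cells.

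Reads counted on genes ran from 13247122 to 26365620 per library, with a median of 16854427. Levels are given as CPM, counts scaled to the library total with the TMM factors of edgeR. In these units 3 reads, the least taken as detection, corresponded to 0.108 to 0.230 CPM. Markers of neutrophils, macrophages, fibroblasts, chondrocytes, osteoblasts, osteoclasts, lymphocytes, endothelium, muscle, adipocytes and red cells all had reads in every group. These are bulk samples, in which fewer cells of a type and less RNA per cell cannot be told apart. The first Lean d10 library stood apart from the others. Its mean correlation with its group was 0.944 and its scaling factor 0.779, against 0.957 to 0.984 and 0.914 to 1.09 in the other 29 libraries. The summed level of 6 chondrocyte markers was 56136 CPM in it and 10876 and 8967 CPM in the other Lean d10 libraries, while 8 neutrophil markers summed to 288 CPM against 4466 and 1994. The main results that rest on Lean d10 are therefore also given without it.

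Of the 10 genes, 9 passed the filter on low counts in all fits. Clcf1, which encodes cardiotrophin-like cytokine factor 1, did not. It had 0 or 1 read in every library and 10 reads over all 30, below detection throughout, so that no comparison of it was made. Clcf1 (ENSMUSG00000040663, GRCm38 chromosome 19 from 4214238 to 4223490) shares 311 bases, or 8.17%, of its exons with another annotated gene on the same strand that has no row in the table. Whether reads on this locus were left uncounted for that reason was not tested.

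The sequence ahead of an annotated start of 3 of the genes is shown because Il11 and Il6 had the largest changes between days in DIO mice and Socs3 is the feedback gene. RefSeq windows of 250 bases before the annotated start (GRCm38.p6) were at hand for 8 of the 10 genes. They were searched on both strands for TTCNNNGAA, a core recognised by STAT factors, for TGANTCA, recognised by AP-1, and for GGANTTTCC, one form of an NF-kappaB site. Capitals mark the matches. Of these 3 genes only windows with a match are shown. The Lif window, not shown, also held the AP-1 letters, from 228 to 222 bases before its start. The windows of Il6ra, Il6st, Osmr and Lifr held none of the 3 patterns. The Il6 window lies on the plus strand at chr5:30012864-30013113, and the Il11 window, one of a pair annotated for the gene, on the minus strand at chr7:4778142-4778391. The shown Il11 window lies inside the annotated span of the gene, before an internal start. The other Il11 window, at chr7:4782858-4783107 before the outermost start, held none of the 3 patterns. The Socs3 window lies on the minus strand at chr11:117969452-117969616, with the last bases before the start left out because they overlap an annotated exon. It too lies inside the annotated span of its gene, before an internal start.
Il6: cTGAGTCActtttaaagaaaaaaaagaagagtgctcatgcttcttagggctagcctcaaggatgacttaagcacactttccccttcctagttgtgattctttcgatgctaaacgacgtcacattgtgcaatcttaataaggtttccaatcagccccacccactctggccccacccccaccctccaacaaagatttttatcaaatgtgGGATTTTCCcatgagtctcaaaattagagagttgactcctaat
Il11: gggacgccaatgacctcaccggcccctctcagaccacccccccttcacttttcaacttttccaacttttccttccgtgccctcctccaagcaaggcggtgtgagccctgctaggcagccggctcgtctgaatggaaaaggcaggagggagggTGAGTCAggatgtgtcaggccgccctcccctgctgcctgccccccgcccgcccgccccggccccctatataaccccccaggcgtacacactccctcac
Socs3: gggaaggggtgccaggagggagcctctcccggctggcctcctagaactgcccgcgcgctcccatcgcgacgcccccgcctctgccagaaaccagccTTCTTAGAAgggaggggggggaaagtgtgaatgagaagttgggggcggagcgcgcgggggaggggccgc
In Il6 the AP-1 letters began 249 bases and the NF-kappaB letters 43 bases before the start. In the shown Il11 window the AP-1 letters began 98 bases before its internal start, and in Socs3 the STAT letters began 154 bases before its internal start. Of 32851 RefSeq windows of the same length, 7.02% held the STAT letters, 6.75% the AP-1 letters and 1.07% the NF-kappaB letters. A match describes the letters only. Binding of a factor was not measured.

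Levels of different genes were compared per kilobase of merged exons. On d3 the feedback gene Socs3 was the highest of the 10 in both diets, with a mean of 38.2 CPM per kb in Lean and 60.6 in DIO mice, and the shared chain Il6st followed with 22.6 and 24.9. Each was separated from the next gene in all libraries. Lifr came next, with 8.10 and 8.41 CPM per kb. In Lean mice its libraries overlapped those of Il11 (6.41), and those of Il11 overlapped those of Osm (5.85). In DIO mice the order after Lifr was Osmr (5.58), Il11 (3.92), Osm (3.36) and Lif (3.06), with overlap at each step. Il6 was the lowest detected gene, with 1.13 CPM per kb in Lean and 1.39 in DIO mice, and its libraries overlapped those of Il6ra (2.15 and 1.55). By d21 in DIO mice Lifr led with 19.6 CPM per kb, ahead of Il6st (15.4) and Socs3 (11.8), each without overlap, while Il6 and Il11 were down to 0.127 and 0.0732.

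**Figure D1:**
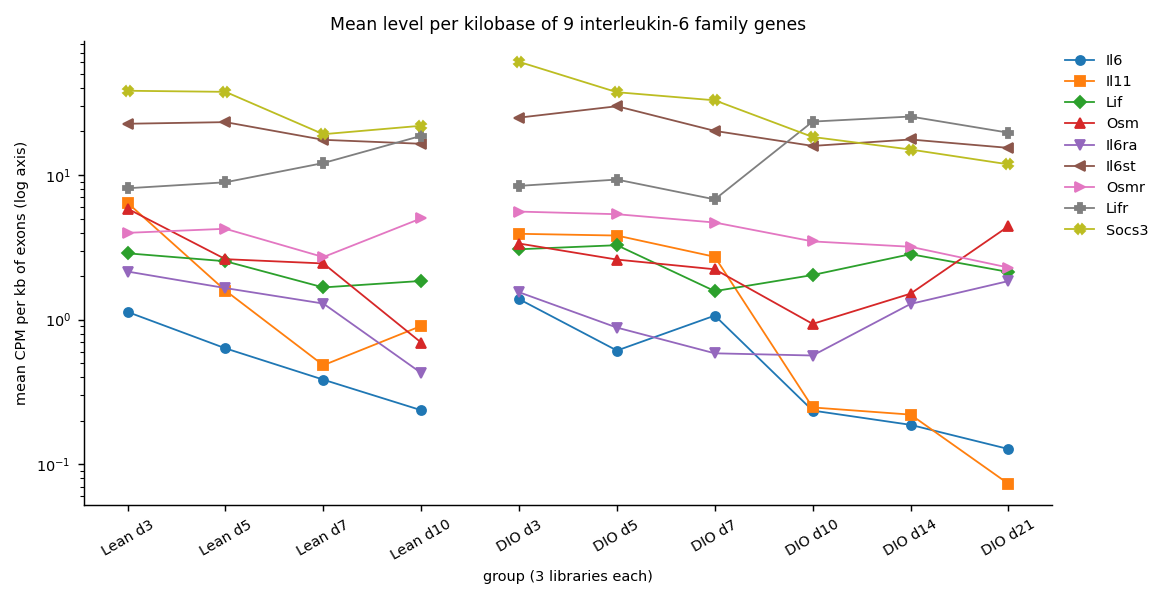
Mean level per kilobase of exons of 9 genes (y axis, CPM per kb, log axis) in the 10 groups of 3 libraries each (x axis), Lean on the left and DIO on the right, with 1 line a gene and no error bars. Socs3 was highest on d3 (38.2 CPM per kb in Lean, 60.6 in DIO), and Lifr was highest in DIO mice from d10 on (19.6 on d21).

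The family's course from d3 to d10 was mostly downward in both diets, and Lifr was the only gene called higher. In Lean mice 5 of the 9 genes changed between d3 and d10 at an edgeR adjusted p under 0.05, 4 of them lower and 1 higher. Of all 16471 genes tested, 29.3% changed and 14.1% were lower. Without the first Lean d10 library 6 of the 9 changed, 5 lower, where 22.8% of 16836 genes changed and 11.4% were lower. In DIO mice 8 of the 9 changed, 7 lower and 1 higher, where 21.8% of 16995 genes changed and 10.8% were lower. The median log2 fold change of the 9 genes was -0.77 in Lean (-1.21 without that library) and -1.46 in DIO mice, beside 0.02 over all genes in each full fit. On d21 against d3 in DIO mice 6 of the 9 had changed, 5 lower, where 45.3% of all genes changed and 21.8% were lower. Both DIO comparisons share the d3 libraries.

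**Figure D2:**
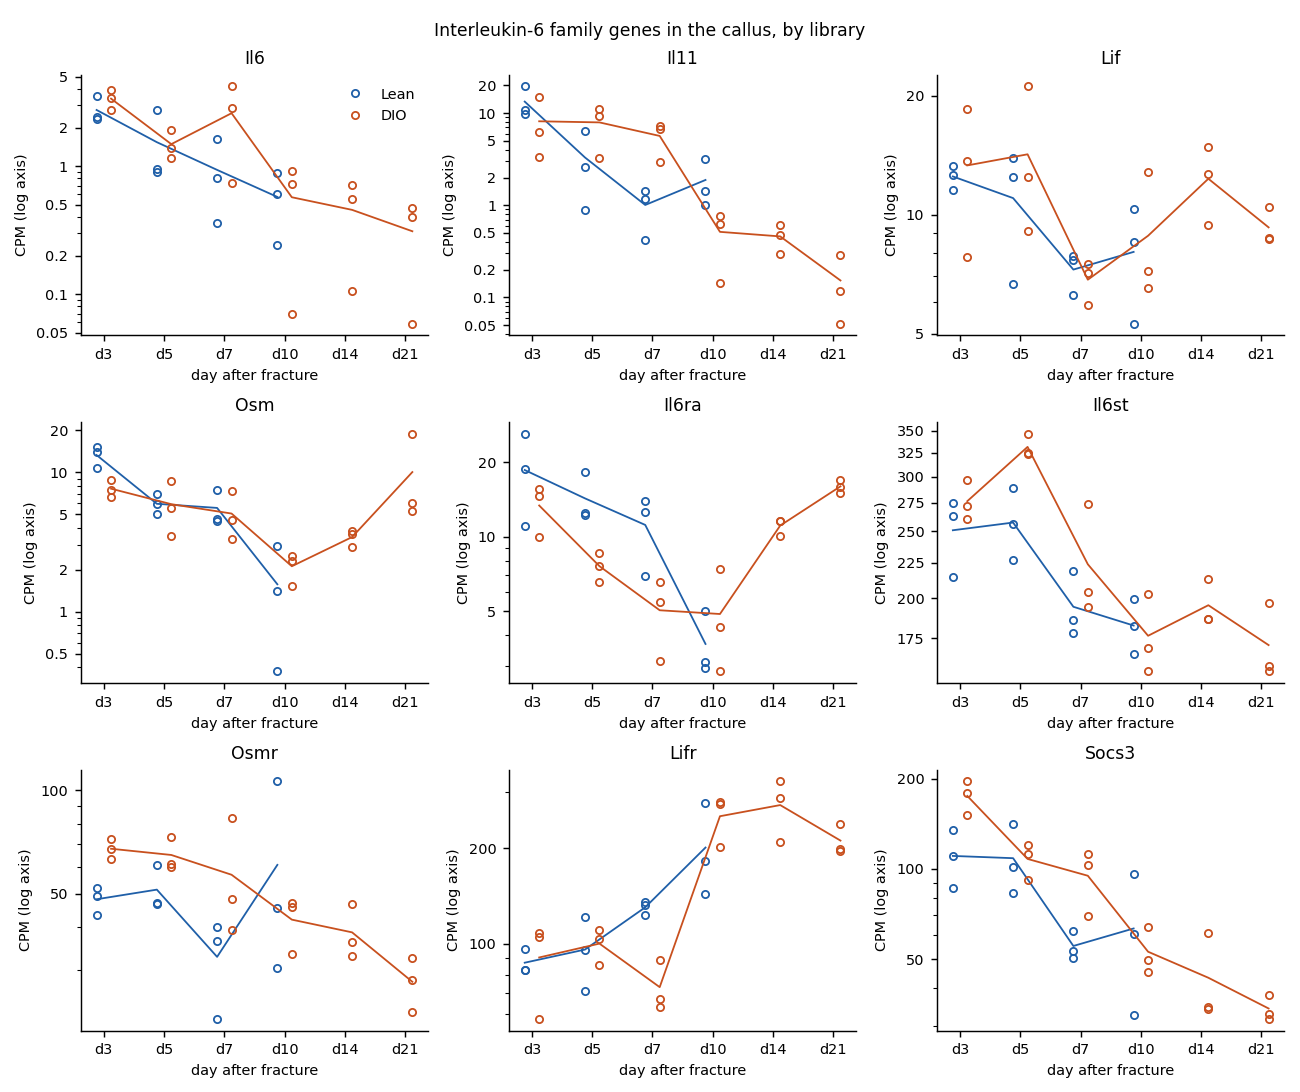
Level of 9 genes in each library (y axis, CPM, log axis) by day after fracture (x axis), with 1 circle a mouse and lines through the group means, Lean in blue and DIO in orange. In DIO mice Il11 went from 3.30 to 14.9 CPM on d3 down to 0.0518 to 0.288 CPM on d21, and Lifr from 58.2 to 108 CPM on d3 up to 201 to 279 CPM on d10.

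Il6, the inflammatory cytokine that gives the family its name (ENSMUSG00000025746, chromosome 5 from 30013114 to 30019981), was scarce, with 1 to 98 reads per library and at least 3 reads in 27 of the 30. In Lean mice its level was 2.31, 3.52 and 2.40 CPM on d3 and 0.877, 0.604 and 0.240 CPM on d10. The d10 libraries all lay below those of d3, and the log2 fold change was -2.21 (with a standard error, SE, of 0.65, edgeR adjusted p = 0.0244). Without the first Lean d10 library it was -2.66 (edgeR adjusted p = 0.0278). Leaving out the second d3, the second d10 or the third d10 library ended the call (edgeR adjusted p = 0.0543 to 0.0803). In DIO mice Il6 was at 2.76, 3.94 and 3.39 CPM on d3 and at 0.921, 0.721 and 0.0700 CPM on d10, and it fell by 2.56 in log2 units (SE 0.72, edgeR adjusted p = 0.0180). This call was lost without the second d3 library or the third d10 library (edgeR adjusted p = 0.0582 and 0.0766). On d7 DIO mice had 2.83, 4.19 and 0.740 CPM and Lean mice 1.64, 0.358 and 0.801 CPM, so that 2 DIO libraries lay above all Lean ones and 1 did not. By d21 the DIO libraries held 0.403, 0.0587 and 0.466 CPM, or 17 reads together, and the difference from d3 was -3.40 in log2 units (SE 0.76, edgeR adjusted p = 0.00149).

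Il11 had the largest changes of the 9 genes in DIO mice. It encodes a cytokine best known in bone for promoting osteoblast differentiation, and lies on chromosome 7 from 4772373 to 4782859 (ENSMUSG00000004371). Lean mice had 19.5, 9.72 and 10.8 CPM on d3, 0.882, 2.57 and 6.45 CPM on d5, 1.17, 0.418 and 1.43 CPM on d7, and 3.20, 1.01 and 1.44 CPM on d10. Every Lean library after d3 lay below all of d3. From d3 to d7 Il11 had a log2 fold change of -3.69 (SE 0.71, edgeR adjusted p = 0.0240), the only 1 of the 9 genes to change, where 1.67% of all genes did. Leaving out the first or second d3 library or any d7 library ended this call (edgeR adjusted p = 0.0669 to 0.104). By d10 it had a log2 fold change from d3 of -2.78 (SE 0.67, edgeR adjusted p = 0.00976), and without the first d10 library the change was -3.40 (edgeR adjusted p = 0.00931).

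In DIO mice the levels of Il11 were 3.30, 6.28 and 14.9 CPM on d3, 9.42, 3.23 and 11.2 CPM on d5 and 7.24, 6.77 and 2.96 CPM on d7, and these days overlapped. On d10 the libraries held 0.767, 0.144 and 0.630 CPM, from only 10, 2 and 9 reads, below every earlier DIO library. Its log2 fold change between d7 and d10 was -3.45 (SE 0.67, edgeR adjusted p = 0.00230), and it passed the threshold with each of the 18 DIO libraries left out in turn. On d14 and d21 Il11 stayed near or below detection, at 0.605, 0.295 and 0.476 CPM and at 0.288, 0.117 and 0.0518 CPM. Only 1 of the 3 libraries of d21 reached 3 reads. The change from d3 to d21, -5.70 (SE 0.77, edgeR adjusted p = 1.94e-05), rests on 8 reads in the 3 libraries of d21, so that its size depends on how the fit treats low counts.

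Osm encodes oncostatin M, a product mainly of neutrophils, macrophages and T cells (ENSMUSG00000058755, chromosome 11 from 4236420 to 4241026). In Lean mice it went from 13.9, 15.3 and 10.7 CPM on d3 to 0.376, 1.41 and 2.94 CPM on d10. The groups did not overlap, and the change was -3.03 in log2 units (SE 0.50, edgeR adjusted p = 0.00156), or -2.56 without the first d10 library (edgeR adjusted p = 0.000910). In DIO mice it went from 6.67, 8.78 and 7.45 CPM on d3 to 2.30, 2.52 and 1.54 CPM on d10, a change of -1.84 (SE 0.46, edgeR adjusted p = 0.00882).

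Unlike Il6 and Il11, Osm was high again at the end of the series. Its levels in DIO mice were 3.80, 3.60 and 2.91 CPM on d14 and 18.8, 5.99 and 5.29 CPM on d21, without overlap. It rose by 1.54 in log2 units (SE 0.44, edgeR adjusted p = 0.0220), the only 1 of the 9 genes to change between these days, where 19.6% of all genes did. The first d21 library decided the size of this change. Without it the log2 fold change was 0.71 (edgeR adjusted p = 0.239), and the call was also lost without the first or the third d14 library (edgeR adjusted p = 0.0581 and 0.0854). In the same comparison 3 of 8 neutrophil markers rose and 0 fell. Their summed level was 1916.5 to 5776 CPM on d14 and 20436, 7383 and 10497.5 CPM on d21, highest in the library with the most Osm. The part of neutrophils in the level of Osm was not tested.

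Lif, whose product keeps stem cells undifferentiated and acts on bone cells (ENSMUSG00000034394, chromosome 11 from 4257557 to 4272514), lay between 5.30 and 21.1 CPM in all 30 libraries. It passed the threshold in none of the comparisons fitted with edgeR. Its unadjusted edgeR p was 0.0112 for DIO d7 against d3, 0.0247 for Lean d7 against d3 and 0.0459 for any difference among the 6 DIO days. Within each diet its 3 libraries of d7 lay below those of d3, with 6.27 to 7.85 against 11.6 to 13.3 CPM in Lean mice (log2 fold change -0.76, SE 0.30, edgeR adjusted p = 0.237) and 5.92 to 7.50 against 7.81 to 18.5 CPM in DIO mice (log2 fold change -0.96, SE 0.34, edgeR adjusted p = 0.0918).

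From d3 to d10, Il6ra and Lifr had the largest log2 fold changes of the receptor genes in both diets. Il6ra encodes the alpha chain that binds IL-6 on hepatocytes and some leukocytes and that is shed as a soluble receptor (ENSMUSG00000027947, chromosome 3 from 89864059 to 89913196). In Lean mice it had 18.8, 26.0 and 11.0 CPM on d3, 6.97, 12.6 and 13.9 CPM on d7 and 5.01, 2.95 and 3.12 CPM on d10. The d10 libraries lay below all earlier Lean ones. The change from d3 was -2.29 in log2 units (SE 0.36, edgeR adjusted p = 0.00128), and without the first d10 library it was -2.57 (edgeR adjusted p = 0.00156). From d7 to d10 it fell by 1.57 (SE 0.36, edgeR adjusted p = 0.0432), again 1 of the 9 genes, where 2.73% of all genes changed. That call held in 2 of the 12 fits with 1 Lean library left out, those without the second or the third d3 library, and was lost in the others (edgeR adjusted p = 0.0570 to 0.143). Without the first d10 library its edgeR adjusted p was 0.0583.

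In DIO mice Il6ra was already lower on d7. It had 14.6, 15.5 and 9.99 CPM on d3 and 6.55, 3.16 and 5.45 CPM on d7, without overlap, a log2 fold change of -1.40 (SE 0.30, edgeR adjusted p = 0.00824). On d10 the level was 7.44, 4.33 and 2.87 CPM, with a change from d3 of -1.46 (SE 0.30, edgeR adjusted p = 0.00282). It then stood at 11.6, 11.6 and 10.0 CPM on d14 and at 15.0, 15.9 and 17.0 CPM on d21, within or near its range on d3. Between d10 and d14 the 3 libraries did not overlap, but the difference of 1.19 (SE 0.30) missed the threshold (edgeR adjusted p = 0.0706). In that comparison 0 of the 9 genes passed with edgeR, where 0.759% of all genes changed. An unadjusted p under 0.05 was found for 1 of the 9, and 1 passed with DESeq2.

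Lifr, the receptor chain that pairs with gp130 for LIF, oncostatin M and cardiotrophin-like ligands (ENSMUSG00000054263, chromosome 15 from 7090614 to 7197489), was the only 1 of the 9 genes called higher on d10 than on d3. In Lean mice it had 83.0, 82.7 and 96.0 CPM on d3, 123, 135 and 132 CPM on d7 and 143, 182 and 278 CPM on d10. The d10 libraries lay above all earlier ones, and the rise from d3 was 1.24 in log2 units (SE 0.24, edgeR adjusted p = 0.00326), or 1.43 without the first d10 library (edgeR adjusted p = 0.00154). In DIO mice it had 58.2, 108 and 105 CPM on d3, 89.1, 66.9 and 63.3 CPM on d7 and 276, 201 and 279 CPM on d10. The rise thus lay between d7 and d10, with a log2 fold change of 1.79 (SE 0.23, edgeR adjusted p = 7.76e-05). It passed the threshold with each of the 18 DIO libraries left out in turn. Lifr was at 324, 209 and 287 CPM on d14 and at 199, 238 and 196 CPM on d21, still 1.22 above d3 in log2 units (SE 0.23, edgeR adjusted p = 0.000379).

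Il6st, the shared chain (ENSMUSG00000021756, chromosome 13 from 112464070 to 112510086), was the most evenly expressed member and stayed between 157 and 346 CPM. In DIO mice it had 297, 272 and 261 CPM on d3 and 203, 157 and 169 CPM on d10. The d10 libraries were all lower (log2 fold change -0.65, SE 0.15, edgeR adjusted p = 0.00669), and on d21, with 157, 197 and 159 CPM, the change from d3 was -0.70 (SE 0.15, edgeR adjusted p = 0.00149). The Lean d10 libraries, with 199, 166 and 182 CPM, lay below those of d3, with 275, 215 and 263 CPM, but the change of -0.43 missed the threshold (edgeR adjusted p = 0.0600), also without the first d10 library (-0.49, edgeR adjusted p = 0.0626).

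Osmr encodes the receptor chain for oncostatin M (ENSMUSG00000022146, chromosome 15 from 6813577 to 6874969). In DIO mice it had 67.5, 63.2 and 72.2 CPM on d3, 47.0, 33.4 and 45.9 CPM on d10 and between 22.6 and 32.6 CPM on d21. These 3 days did not overlap, whereas d7, with 39.3 to 83.0 CPM, overlapped d3 and d10, and d14, with 33.0 to 46.6 CPM, overlapped d10. The change to d21 was -1.29 in log2 units (SE 0.23, edgeR adjusted p = 0.000269). That to d10, -0.68 (SE 0.23, edgeR adjusted p = 0.0408), was lost in 7 of the 18 fits with 1 DIO library left out (any d3 library, the second or the third of d5 or the second or the third of d10, edgeR adjusted p = 0.0512 to 0.169) and under 3 of 7 other settings. In Lean mice the first d10 library had 106 CPM and the other 2 had 30.5 and 45.5 CPM, against 43.5 to 51.9 CPM on d3, so that the groups overlapped. The log2 fold change was 0.37 with and -0.31 without that library, and neither was called (edgeR adjusted p = 0.482 and 0.418).

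Socs3, the feedback inhibitor (ENSMUSG00000053113, chromosome 11 from 117966079 to 117970047), fell in DIO mice. It had 179, 196 and 151 CPM on d3, 103, 112 and 69.5 CPM on d7, 64.1, 45.3 and 49.5 CPM on d10 and 32.9, 38.1 and 31.7 CPM on d21. None of these 4 days overlapped another, but d5, with 91.7 to 120.1 CPM, overlapped d7, and d14, with 34.2 to 61.2 CPM, overlapped d10 and d21. The steps from d10 to d14 and from d14 to d21 were not called (edgeR adjusted p = 0.521 and 0.293). It changed on the log2 scale by -0.88 from d3 to d7 (SE 0.22, edgeR adjusted p = 0.0226), -0.84 from d7 to d10 (SE 0.22, edgeR adjusted p = 0.0184) and -2.36 from d3 to d21 (SE 0.23, edgeR adjusted p = 1.23e-06). The step from d3 to d7 was lost without the first or second d3 library or the third d7 library (edgeR adjusted p = 0.0647 to 0.0943). The step from d7 to d10 was lost without the first or second d7 library or the second or the third d10 library (edgeR adjusted p = 0.0602 to 0.0899). In Lean mice Socs3 had 135, 86.2 and 110.2 CPM on d3 and 62.3, 53.3 and 50.5 CPM on d7, without overlap, but the change of -0.98 (SE 0.33) missed the threshold (edgeR adjusted p = 0.169). On Lean d10 its libraries had 96.4, 32.6 and 60.9 CPM, highest in the first. The change from d3 was -0.77 (SE 0.33, edgeR adjusted p = 0.0956), and without the first library it was -1.21 and passed the threshold (edgeR adjusted p = 0.0151).

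**Figure D3:**
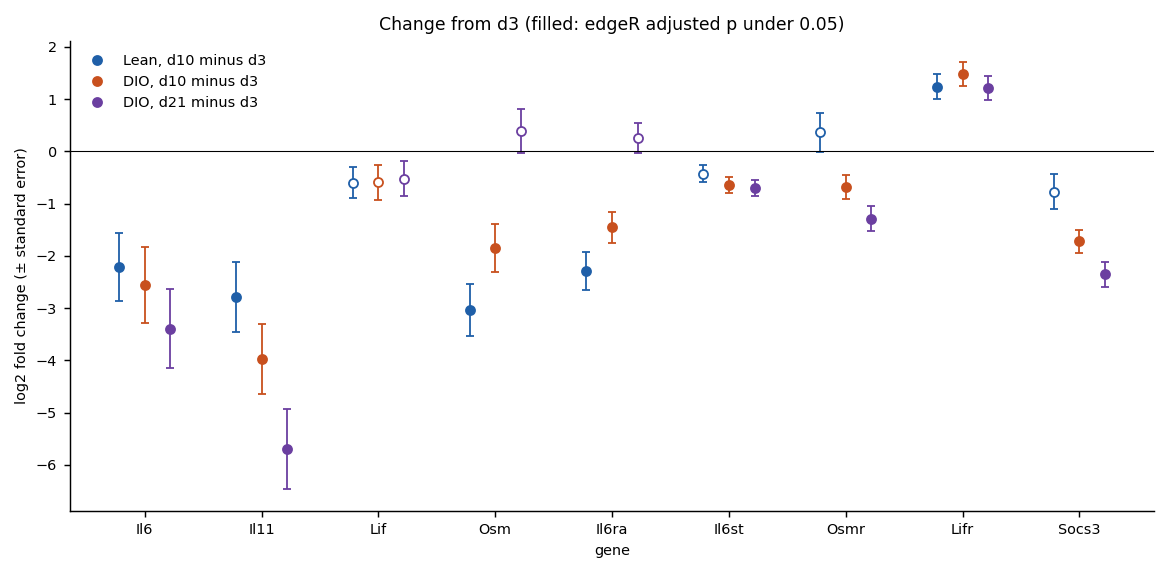
Log2 fold change from d3 (y axis) of 9 genes (x axis) in Lean mice on d10 (blue) and in DIO mice on d10 (orange) and d21 (purple), with bars for the standard error and filled circles for an edgeR adjusted p under 0.05. Lifr lay above 0 in all 3 comparisons (1.24, 1.48 and 1.22), while Il6 and Il11 lay below 0 in all 3.

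Counts for the other pairs of days place these genes in the whole series. From d7 to d10 in DIO mice 3 of the 9 changed (Il11, Lifr and Socs3), where 13% of all genes did, and from d3 to d7 it was 2 of the 9 (Il6ra and Socs3), where 7.3% did. Between d3 and d5, 0 of the 9 passed with edgeR in either diet, and 2 in each had an unadjusted p under 0.05. DESeq2 passed 1 in Lean and 0 in DIO mice, and 0.449% and 1.68% of all genes changed with edgeR. A test of any difference among the days passed 4 of the 9 in Lean mice (Il11, Osm, Il6ra and Lifr), where 19% of all genes passed, and 8 of the 9 in DIO mice, all but Lif, where 59.1% did.

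The cell type markers moved over the same days. Between d3 and d10, 5 of 8 neutrophil markers fell in Lean mice, with sums of 7907 to 17504 CPM on d3 and 288 to 4466 CPM on d10, and 0 of 8 changed in DIO mice, with 1664 to 2438 and 1809 to 3944 CPM. Of 8 monocyte and macrophage markers, 5 fell and 2 rose in Lean mice (1736 to 1898 CPM on d3, 1246 to 1599 CPM on d10), and 4 fell and 1 rose in DIO mice (1019 to 2141 and 1449 to 1567 CPM). All 5 osteoclast markers rose in both diets, from 995 to 1315 CPM to between 12565 and 15959.6 CPM in Lean and from 599 to 1084 CPM to between 13463.5 and 17306 CPM in DIO mice. Of 6 chondrocyte markers 6 rose in Lean mice (308 to 437 CPM, then 8967 to 56136 CPM) and 4 in DIO mice (299 to 965 CPM, then 1421 to 4839 CPM). Other lists changed too. In DIO mice all 6 T cell markers (4.97 to 6.77, then 19.5 to 30.4 CPM), all 4 B cell markers (7.51 to 11.8, then 53.6 to 91.4 CPM) and all 4 erythroid markers (586 to 666, then 1656 to 4098 CPM) rose. Osteoblast markers rose in 5 of 6 cases in Lean mice (3821 to 5704, then 10033 to 17199.5 CPM) and in 2 of 6 in DIO mice (2527 to 6951, then 9209 to 10966 CPM). Of 6 fibroblast and periosteal markers, 2 fell and 1 rose in DIO mice (8010 to 10640, then 4485 to 4991 CPM). In Lean mice 1 of them rose and 0 fell (5824 to 8517, then 4620 to 7656 CPM). Without the first Lean d10 library the Lean counts were 4 of 8 neutrophil markers lower, 4 of 8 macrophage markers lower and 2 higher, and 5 of 6 chondrocyte, 4 of 6 osteoblast and 5 of 5 osteoclast markers higher. On d21 against d3 in DIO mice 4 of 6 fibroblast and periosteal markers fell and 1 rose (8010.1 to 10640.3, then 1250.3 to 2514 CPM), and 6 of 8 neutrophil, 6 of 6 T cell, 4 of 4 B cell, 4 of 4 erythroid, 4 of 4 adipocyte and 5 of 5 osteoclast markers rose. Between d7 and d10 in DIO mice all 6 chondrocyte markers fell (13846 to 33581, then 1421 to 4839 CPM). All 5 osteoclast markers rose (1514 to 2234, then 13463.5 to 17306 CPM). Of 6 fibroblast and periosteal markers 2 fell and 0 rose (9107 to 16924, then 4485 to 4991 CPM). Markers also rose for B cells (4 of 4), adipocytes (3 of 4), osteoblasts and T cells (2 of 6 each) and macrophages (2 of 8). Of 8 neutrophil markers 1 fell. No marker of these lists was at 0 in any group. Their part in the changes of the family was not tested.

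Diet was compared within each day to ask whether obesity shifts these genes. On d7, 2 of the 9 genes differed between DIO and Lean mice, Il11 higher and Lifr lower in DIO mice, where 2.32% of 15753 genes differed. Il11 was at 7.24, 6.77 and 2.96 CPM in DIO and at 1.17, 0.418 and 1.43 CPM in Lean mice, and every DIO library lay above every Lean one. The difference was 2.49 in log2 units (SE 0.51, edgeR adjusted p = 0.0410). Lifr was at 89.1, 66.9 and 63.3 CPM in DIO and at 123, 135 and 132 CPM in Lean mice, again without overlap, with a difference of -0.82 (SE 0.18, edgeR adjusted p = 0.0451). Both calls lie close to the threshold. That of Il11 held only when the third DIO library was the one left out (edgeR adjusted p = 0.0243, otherwise 0.0716 to 0.156) and that of Lifr only when it was the first (edgeR adjusted p = 0.0458, otherwise 0.0509 to 0.204), while the differences kept their sign in all of these fits.

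**Figure D4:**
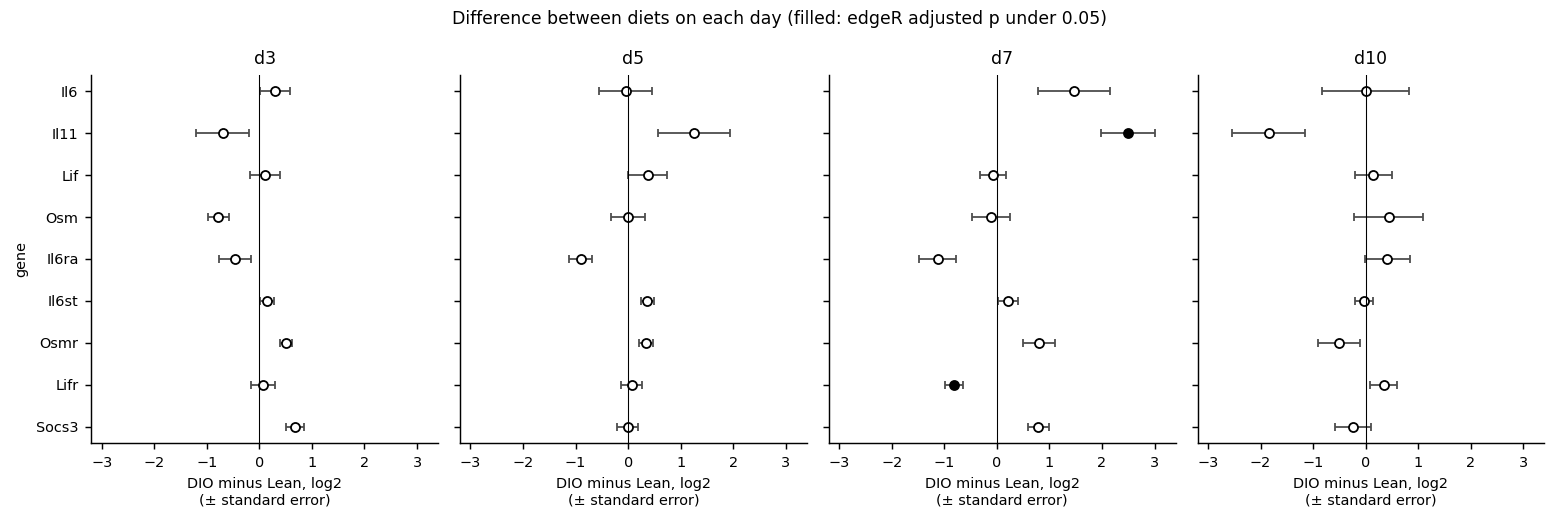
DIO minus Lean difference on the log2 scale (x axis, bars for the standard error) of 9 genes (y axis) on d3, d5, d7 and d10, with filled circles for an edgeR adjusted p under 0.05. Il11 (2.49) and Lifr (-0.82) on d7 are the filled ones.

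Other genes had libraries apart on d7 without passing. Socs3 was at 103, 112 and 69.5 CPM in DIO and at 62.3, 53.3 and 50.5 CPM in Lean mice, a difference of 0.79 (SE 0.20, edgeR adjusted p = 0.0813). Il6ra was at 6.55, 3.16 and 5.45 CPM against 6.97, 12.6 and 13.9 CPM, a difference of -1.12 (SE 0.35, edgeR adjusted p = 0.142). With DESeq2, 4 of the 9 genes passed on d7, a count without its share over all genes. Il6 was not apart, with 2 of 3 DIO libraries above all Lean ones (difference 1.47, SE 0.69, edgeR adjusted p = 0.330). In the same libraries 3 of 6 chondrocyte markers were higher in DIO mice, with sums of 13846 to 33581 CPM against 2974 to 12399 CPM. All 5 osteoclast markers were lower (1514 to 2234 against 4128 to 5117 CPM), as were 3 of 8 monocyte and macrophage markers (842 to 942 against 1179.7 to 1842 CPM). Their part in the differences of Il11 and Lifr was not tested.

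On d3, 0 of the 9 genes passed between the diets with edgeR, as did 0 (0%) of 15772 genes. An unadjusted p under 0.05 was found for 3 of the 9, and 3 passed with DESeq2. Shares of all genes with DESeq2 or at that unadjusted p are not given here, so these counts are not read as an excess. Osm was lower in all DIO libraries (6.67 to 8.78 CPM against 10.7 to 15.3 CPM, difference -0.79, SE 0.20, edgeR adjusted p = 0.143). The 8 neutrophil markers summed to 1664 to 2438 CPM in these DIO and 7907 to 17504 CPM in these Lean libraries, also without overlap, and their part in this difference was not tested. Socs3 was at 151 to 196 CPM in DIO and at 86.2 to 135 CPM in Lean mice (difference 0.68, SE 0.18, edgeR adjusted p = 0.152), and Osmr at 63.2 to 72.2 against 43.5 to 51.9 CPM (difference 0.50, SE 0.11, edgeR adjusted p = 0.121). On d5, 0 of the 9 passed with edgeR and 1 with DESeq2, 3 had an unadjusted p under 0.05, and 1.08% of all genes differed with edgeR. Il6ra was then lower in all DIO libraries (6.56 to 8.62 against 12.2 to 18.2 CPM, difference -0.91, SE 0.21, edgeR adjusted p = 0.0899). On d10, 0 of the 9 passed with either tool, as did 0 (0%) of 15341 genes with edgeR. The 1 gene with an unadjusted p under 0.05 was Il11, at 0.767, 0.144 and 0.630 CPM in DIO and at 3.20, 1.01 and 1.44 CPM in Lean mice, a difference of -1.84 (SE 0.70, edgeR adjusted p = 0.686), or -1.25 without the first Lean library (edgeR adjusted p = 1.00).

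Whether the diet difference itself changed over d3 to d10 was tested in 1 fit of 24 libraries. For the 3 terms together 0 of the 9 genes passed with edgeR, where 1.65% of 17057 genes passed. An unadjusted p under 0.05 was found for 4 of the 9, and 1 passed with DESeq2. Il11 came closest with edgeR (adjusted p = 0.0772), and it was the gene that passed with DESeq2 (adjusted p = 0.00129), with all genes of at least 1 count tested (edgeR adjusted p = 0.0227) and with all 30 libraries in 1 fit (edgeR adjusted p = 0.0477). With 1 library left out it passed in 3 of 24 fits, those without the third Lean d5, the second Lean d10 or the third DIO d3 library (edgeR adjusted p = 0.0284, 0.0496 and 0.0462), and without the first Lean d10 library its edgeR adjusted p was 0.189. Its DIO minus Lean difference was larger on d7 than on d3 by 3.17 in log2 units (SE 0.95, edgeR adjusted p = 0.319), in a comparison added after its values were seen, in which 0 of the 9 genes and 0 (0%) of all genes passed and 2 of the 9 had an unadjusted p under 0.05. From d3 to d10 the change of the difference passed in 0 of the 9 (2 at an unadjusted p under 0.05) and in 0.00586% of all genes. DESeq2 passed 0 of the 9 in both. Whether the courses of Il11 differed between the diets thus depended on the tool, the filter and the libraries in the fit.

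The wider pathway was described by 4 lists of genes, by counts and medians only. Of 12 other genes of the family, 8 passed the filter, Cntf, Ctf2 and Il31 did not, and Il11ra2 has several rows and was left out. Il11ra1, the alpha chain for IL-11, was at 104, 68.1 and 66.5 CPM in DIO mice on d3 and at 28.5, 36.8 and 23.3 CPM on d21, a change of -1.43 (SE 0.22, edgeR adjusted p = 6.48e-05). Its sequence is shared in part with Il11ra2 copies, so that its counts are uncertain. Il27 and Ebi3, which encode the subunits of IL-27, fell in Lean mice from d3 to d10, with log2 fold changes of -2.50 and -2.02 (edgeR adjusted p = 0.00969 and 0.0212). Ebi3 lost its call without the second d3 or the third d10 library (edgeR adjusted p = 0.0833 and 0.0605). Il31ra, a receptor chain for IL-31, also fell, by 2.83 (edgeR adjusted p = 0.0444), where the call held in 3 of the 12 fits with 1 Lean library left out (edgeR adjusted p up to 0.180). It had 11, 31 and 4 reads on d3 and 2, 2 and 0 reads on d10, below detection in each d10 library. Il27 had 4, 7 and 2 reads on d10. The sizes of both changes thus depend on how the fit treats low counts. Il27, Ebi3 and Il31ra were the 3 of 8 that changed, where 29.3% of all genes did, with a list median of -0.81 beside 0.02 over all genes. Without the first d10 library Il27 and Ebi3 were the 2 of 8 that changed (log2 fold changes -2.43 and -1.54, edgeR adjusted p = 0.0301 and 0.0280). On d21 against d3 in DIO mice 5 of the 8 changed, where 45.3% of all genes did, with Il11ra1, Cntfr and Ctf1 lower and Il27ra and Il31ra higher, and a list median of 0.39 beside 0.03. The calls of Ctf1 and Il31ra held in 14 and 13 of the 18 fits with 1 DIO library left out (edgeR adjusted p up to 0.110 and 0.178).

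**Figure D5:**
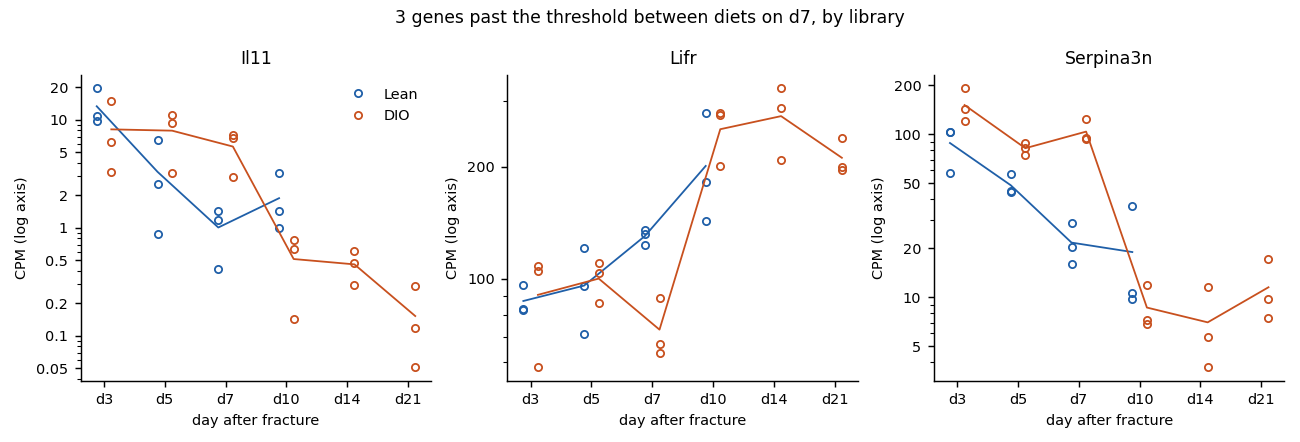
Level of Il11, Lifr and Serpina3n in each library (y axis, CPM, log axis) by day after fracture (x axis), with 1 circle a mouse and lines through the group means, Lean in blue and DIO in orange. On d7 all DIO libraries lay above all Lean ones for Il11 and Serpina3n and below them for Lifr.

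Of 12 genes of the JAK and STAT machinery, 7 changed in Lean mice from d3 to d10, 6 lower, with a median of -0.34, where 29.3% of all genes changed and 14.1% were lower. Without the first d10 library it was 6 of the 12, 5 lower, where 22.8% of all genes changed and 11.4% were lower. The adaptor gene Gab1 rose by 1.33 (SE 0.21, edgeR adjusted p = 0.00136), and the phosphatase gene Ptpn6, which is mainly haematopoietic, fell by 1.24 (SE 0.30, edgeR adjusted p = 0.00965). Without that library their log2 fold changes were 1.16 and -0.96 (edgeR adjusted p = 0.00372 and 0.0179). In DIO mice 3 of the 12 changed over the same days, where 21.8% of all genes did, with a median of -0.24, and Gab1 rose by 0.75 (SE 0.13, edgeR adjusted p = 0.000889). On d21 against d3, Jak1 rose by 0.60 (edgeR adjusted p = 0.000485) and Pias3, an inhibitor of STAT3, fell by 0.69 (edgeR adjusted p = 0.00137), with 3 of the 12 higher and 2 lower, where 45.3% of all genes changed, and a median of 0.12 beside 0.03.

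Among 5 other feedback inhibitors of the same type as Socs3, directions differed. In DIO mice Socs1 fell from 18.2, 17.8 and 21.0 CPM on d3 to 2.25, 2.47 and 5.18 CPM on d21, by 2.52 in log2 units (SE 0.29, edgeR adjusted p = 4.71e-06), and Socs5 fell by 1.01 (SE 0.21, edgeR adjusted p = 0.000801). These were the 2 of 5 that changed, where 45.3% of all genes did. Between d3 and d10, Socs2 and Cish, both known as STAT5 targets, rose by 0.64 and 1.21 (edgeR adjusted p = 0.00879 and 0.0126), while Socs1 fell by 0.81 (edgeR adjusted p = 0.0421), and the list median was 0.07 beside 0.02. Thus 3 of the 5 changed, where 21.8% of all genes did. Socs2 lost its call without the second d3 library (edgeR adjusted p = 0.0550), Cish without the third d3 or the third d10 library (0.0596 and 0.0502), and Socs1 in 8 of the 18 fits with 1 DIO library left out (up to 0.143). In Lean mice only Socs2 of the 5 changed between d3 and d10, where 29.3% of all genes did. It rose by 0.72 (SE 0.19, edgeR adjusted p = 0.0156). This call was lost without the second d3 library (edgeR adjusted p = 0.0632) or the first d10 library (log2 fold change 0.47, edgeR adjusted p = 0.0532).

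The last list held 22 genes known to respond to STAT3 or to acute-phase cytokines. Like the other lists, it was written with earlier results of these data known. Its counts beside the shares of all genes are therefore not independent support. From d3 to d10, 12 of the 22 fell and 0 rose in Lean mice, with a median of -0.88, and 14 fell and 0 rose in DIO mice, with a median of -1.27, beside 0.02 over all genes in each. Of all genes, 14.1% were called lower in Lean and 10.8% in DIO mice. Without the first Lean d10 library 16 of the 22 fell, with a median of -1.34, where 11.4% of all genes were lower. Serpina3n, an acute-phase protease inhibitor, fell by 2.19 in Lean mice (SE 0.45, edgeR adjusted p = 0.00486) and had a log2 fold change of -4.12 in DIO mice (SE 0.38, edgeR adjusted p = 1.87e-06). The Lean value was -3.08 without the first d10 library (edgeR adjusted p = 0.000169), which had 36.4 CPM against 9.79 and 10.6 CPM. In DIO mice the AP-1 genes Junb and Fosl1 had log2 fold changes of -1.52 and -3.32 (edgeR adjusted p = 2.77e-05 and 0.000229), and the interleukin-4 receptor gene Il4ra one of -2.42 (edgeR adjusted p = 4.40e-06). On d21 against d3, 13 of the 22 were lower and 3 higher, where 21.8% of all genes were lower and 45.3% changed, with a median of -1.12 beside 0.03. The 3 that rose were Pim1, Lcn2 and Hp, named after their values were seen, of which Lcn2 and Hp are also products of maturing neutrophils. Between the diets 1 of the 22 differed on d7, where 2.32% of all genes did. Serpina3n was at 94.3, 124 and 93.3 CPM in DIO and at 28.5, 16.1 and 20.4 CPM in Lean mice, a difference of 2.27 (SE 0.24, edgeR adjusted p = 0.00470). On d5 it was also the 1 of the 22 that differed, where 1.08% of all genes did, by 0.76 (SE 0.13, edgeR adjusted p = 0.0498), a call that held in 1 of the 6 fits with 1 library left out (edgeR adjusted p up to 0.213).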

How the data were processed

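Bulk RNA sequencing of 30 fracture calli was analysed from the deposited table of raw counts per gene (43629 genes, 27445 with at least 1 count). Per the study's methods and the submitters' processing notes, the authors prepared stranded poly(A) libraries, aligned reads to GRCm38 with HISAT2 2.1.0 and counted them with HTSeq. The strand setting of the counting and its annotation are not given in the sources used here, so reads of antisense or overlapping genes may be shared (Il6ra shares 242 exon bases, 2.80%, with an antisense gene). Poly(A) selection and whole-gene counting do not resolve isoforms or soluble receptors, and secreted protein was not measured. Groups were taken from the labels. No column was left unused (0). Some results are not reported here.

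The members and lists were chosen with earlier results of these data known. The main test was the quasi-likelihood F-test of edgeR 4.0.16 in R 4.3.3 with TMM scaling, its expression filter and Benjamini-Hochberg adjustment over all genes at 0.05. The 12 Lean and the 18 DIO libraries were fitted separately to compare days, diet in 1 fit of the 6 libraries of each day, and the change of the diet difference in 1 fit of 24 libraries. The standard error of a log2 fold change was its size divided by the square root of F, and all tests were two-sided. Alternatives were DESeq2 1.42.0, RLE and upper-quartile scaling, other filters, a replicate block, 1 fit of all libraries and each library left out in turn. Shares over all genes come from edgeR at the adjusted threshold. None are given for DESeq2 or for unadjusted p, so such counts are not read as an excess. The fits were checked on simulated counts. Exon lengths came from GENCODE M21, to which 42548 genes matched, and promoter windows from RefSeq (GRCm38.p6). Named were all 10 members, any other gene of the family, at most 4 genes of each other list by smallest adjusted p, and 3 neighbours of each member by Pearson r. Library totals of 13247122 to 26365620 counts limit precision mainly for Il6 and Il11.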

Additional observations from a re-analysis of the deposited data

Results flagged for a closer look

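For Serpina3n, an acute-phase protease inhibitor gene, the difference between diets itself differed over d3, d5, d7 and d10, by a test of the 3 interaction terms together in 24 libraries (edgeR adjusted p = 0.0233, and 0.0147 without the first Lean d10 library). On d3 its level was 191, 120 and 142 CPM in DIO and 103, 58.1 and 104 CPM in Lean mice, without overlap, though edgeR called 0 genes between the diets that day. On d5 it was 88.9, 82.5 and 75.1 CPM in DIO and 44.1, 57.3 and 44.7 CPM in Lean mice, also without overlap. On d7 it was 94.3, 124 and 93.3 CPM in DIO and 28.5, 16.1 and 20.4 CPM in Lean mice, again without overlap. On d10 it was at 6.83, 11.9 and 7.21 CPM in DIO mice and at 36.4, 9.79 and 10.6 CPM in Lean mice, and the groups overlapped. Of the 9 tested genes named at the outset, 0 passed this test with edgeR, 4 had an unadjusted p under 0.05 and DESeq2 passed 1, Il11. Groups of 3 libraries are too small for a test of single outlying libraries.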

How the results depend on the processing

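No fold change of the 9 genes that passed the threshold changed sign under any alternative, while 42 that did not pass, of 0.69 or less in size, did so in 83 of 3285 refitted values. Counts of the 9 genes called moved by over 1.5 times in 19 cases. DESeq2 called 1 for Lean d5 against d3, 2 for Lean d10 against d7, 7 for any Lean day, 5 for DIO d10 against d7, 1 for DIO d14 against d10, 3, 1 and 4 between the diets on d3, d5 and d7, and 1 for the diet difference between days. Testing all genes with at least 1 count gave 2 for Lean d10 against d7 and 1 each for DIO d14 against d10, diet on d5 and the diet difference between days. All 30 libraries in 1 fit gave 2 for Lean d10 against d7, 1 for DIO d7 against d3 and 1 for the diet difference between days. The cause was not tested. In no comparison did every pair of same-numbered libraries have deviations correlated over 0.1 (mean correlations from -0.205 to 0.174). The labels state no pairing, but this rule cannot exclude weak or partial sharing between libraries of the same number. With the replicate block the counts were 2 for Lean d10 against d7, 7 for any Lean day and 0 for diet on d7.

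With each library left out in turn the counts ran from 0 to 2 for Lean d7 against d3, 0 to 1 for Lean d10 against d7, 4 to 6 for Lean d10 against d3, 4 to 5 for any Lean day, 1 to 2 for DIO d7 against d3, 2 to 4 for DIO d10 against d7, 6 to 8 for DIO d10 against d3, 0 to 1 for DIO d14 against d10, 0 to 1 for DIO d21 against d14, 8 to 9 for any DIO day, 0 to 1 and 0 to 2 between the diets on d5 and d7, and 0 to 1 for the diet difference between days. The other counts did not move. No scaling shifted the median of all genes by over 0.1. Depth limits Il6 and Il11 in DIO mice after d7, where libraries held few reads, and Clcf1 throughout.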

Other observations

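The genes whose levels most resembled those of each member over the 30 libraries are given as a description, by Pearson r of log2 CPM among 14808 genes. The libraries share groups and days. Il6 was nearest to the chemokine genes Cxcl5 (0.898), Ccl7 (0.865) and Ccl2 (0.858), and Il11 to Ier3 (0.909), Mtap (0.904) and Slc1a4 (0.899). Socs3 was nearest to Fosl1 (0.914), Bcl3 (0.913) and Sod3 (0.911). Lifr was nearest to Slit2 (0.957). Osm was nearest to Gas7 (0.894), Il6ra to Zfp217 (0.928), Il6st to Adam9 (0.883) and Osmr to Layn (0.858). Lif had the weakest nearest gene, Dcp1a, with 0.714.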
